A study of Mus musculus with 32 samples.

Results

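Gpr101 and other receptors of its kind were followed across the hypothalamus of Gpr101 knockout and wild-type mice, to ask whether the level of any other receptor differed where Gpr101 was lost. The 9 listed genes were Gpr101, Gpr3, Gpr6, Gpr12, Gpr22, Gpr26, Gpr52, Gpr83 and Brs3, chosen by symbol as receptors that couple to Gs or that have been classed as orphans. Of these, 8 were paired with an identifier among the 55401 genes of the table, and all 8 were among the 19928 genes tested. Gpr101 passed the filter on low values through its wild-type libraries. Gpr52 could not be paired with an identifier and was not analysed here.

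Hypothalami of 32 C57BL/6NTac males were analysed by RNA sequencing. Hemizygous Gpr101 knockouts received control diet (KO_CD, 8 mice) or a high-fat diet, with 60% of energy as fat (KO_HFD, 9 mice), and wild-type littermates received control diet (WT_CD, 7 mice) or that high-fat diet (WT_HFD, 8 mice). All mice had standard chow until the high-fat diet began at 7 weeks, and they were 149 or 150 days old when killed, with age following diet: 6 WT_CD, 5 KO_CD, 1 WT_HFD and 1 KO_HFD mice were 149 days old. For the control diet and the knockout allele, the make-up was not given in the sources used here.

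A receptor that couples to Gs activates adenylyl cyclase, and the cyclic AMP formed activates protein kinase A and transcription through CREB. Gpr101, on the X chromosome, encodes an orphan receptor of this kind that hypothalamic neurons express strongly. In humans, extra copies of GPR101 cause a pituitary gigantism. Gpr3, Gpr6 and Gpr12 form a family of receptors with high Gs activity in the absence of a known ligand. Gpr26 is an orphan receptor of the brain with Gs activity of its own. Gpr83 binds the neuropeptide PEN, a product of proSAAS. Brs3 is a receptor related to those for bombesin-like peptides that couples mainly to Gq, and mice without it become obese. Gpr22 is an orphan receptor of brain and heart that couples to Gi.

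All 16 hypothalamic marker genes were detected in every library, the lowest being Crh at 55.7 normalized counts. Reads on genes ranged from 25.3 to 34.2 megareads (M) in a library, the median being 27.7 M. A normalized count is a read count divided by a size factor of its library. In whole tissue, fewer cells of a type and less RNA per cell cannot be told apart.

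Gpr101 (ENSMUSG00000036357; minus strand of chromosome X, 57496668 to 57503757 in GRCm38) was the gene targeted in the knockout and had the highest level of the members. In WT_CD its normalized count ran from 2692 to 2998 with a median of 2847, and in WT_HFD from 2738 to 2988 with a median of 2839. It was listed at 0 reads in all 8 KO_CD libraries, and in KO_HFD 1 read was found in 1 of the 9 libraries. The wild-type and knockout libraries did not overlap. The level in KO_CD was at least 7618-fold lower than in WT_CD, with 3 reads over the group as the floor. In WT_HFD the level per M reads was 25412 times that in KO_HFD, with a 95% counting interval of 4561 to 1003770. On the log2(normalized count + 1) scale the fitted differences were -11.47 (SE 0.12) on control diet and -11.37 (SE 0.12) on high-fat diet. Gpr101 was the only gene called at an adjusted p under 0.05 (limma, Benjamini-Hochberg) in either genotype comparison or in their average, which is 0.00502% of the genes tested in each. These sizes depend on the added count of 1, since the knockout libraries held no more than 1 read.

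No difference of Gpr101 between diets was detected in wild type. The mean was 2839 ± 104 (SD, n = 7) on control diet and 2855 ± 102 (SD, n = 8) on high-fat diet. The log2 difference was 0.01, with a two-sided exact permutation p of 0.763. A fit of the wild-type libraries alone bounded it between -0.05 and 0.07 on the log2 scale (95% interval). The coefficient of variation between mice was 3.66% and 3.58%, against 1.87% and 1.85% expected from counting reads, the smallest spread of any member in wild type.

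The letters of the cyclic AMP response element, the DNA site bound by CREB, were searched in the RefSeq promoters of build GRCm38.p6, which run from 250 bases before to 50 bases after each start. A promoter was listed for 7 members. The palindrome TGACGTCA was found in 1 of them, Gpr6, and in 588 of all 32851 listed promoters (1.79%). The shorter TGACG on either strand, which the palindrome holds on both strands, was found in 4 members, Gpr101, Gpr3, Gpr6 and Gpr83, and in 20.8% of all promoters. The 250 bases before the start are shown for Gpr101, the targeted gene, and for Gpr6, the member with the palindrome. They are written 5′ to 3′ on the minus strand, from chrX:57503758-57504007 and chr10:41072291-41072540, with the matching letters in capitals.
Gpr101: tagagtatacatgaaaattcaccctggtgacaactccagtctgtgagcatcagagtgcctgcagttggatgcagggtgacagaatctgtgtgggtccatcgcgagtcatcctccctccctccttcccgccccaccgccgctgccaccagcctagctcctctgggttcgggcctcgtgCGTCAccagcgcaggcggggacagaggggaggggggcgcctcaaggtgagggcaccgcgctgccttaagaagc
Gpr6: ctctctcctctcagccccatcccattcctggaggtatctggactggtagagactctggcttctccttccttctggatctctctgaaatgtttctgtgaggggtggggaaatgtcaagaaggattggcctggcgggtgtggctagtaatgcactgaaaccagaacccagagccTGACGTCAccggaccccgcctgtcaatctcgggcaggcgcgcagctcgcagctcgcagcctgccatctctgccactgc
The match began 73 bases before the start in Gpr101, where it reads on the opposite strand, and 78 bases before the start in Gpr6. These matches describe letters, and binding was not measured.

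Levels were compared between genes as reads per kb of exon per M reads on genes (RPKM), over the 15 wild-type libraries. Gpr101 stood at 18.8 ± 0.690 RPKM (SD), which was 40.1% of the summed level of the 8 members and 4th among the 81 receptor genes of the lists that were tested. Gpr83 followed at 7.22 ± 0.648 RPKM and Gpr26 at 7.07 ± 0.421 RPKM. Gpr12 stood at 5.28 ± 0.391 RPKM, Gpr22 at 3.66 ± 0.312 RPKM and Gpr6 at 2.25 ± 0.321 RPKM. The lowest were Brs3 at 1.45 ± 0.301 RPKM and Gpr3 at 1.18 ± 0.246 RPKM. In this order the libraries of Gpr83 and Gpr26 overlapped, as did those of Gpr26 and Gpr12, of Gpr6 and Brs3, and of Brs3 and Gpr3. Those of Gpr101 and Gpr83, of Gpr12 and Gpr22, and of Gpr22 and Gpr6 did not. Exon lengths from the annotation set this order, and the isoforms in the tissue were not measured.

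**Figure D1:**
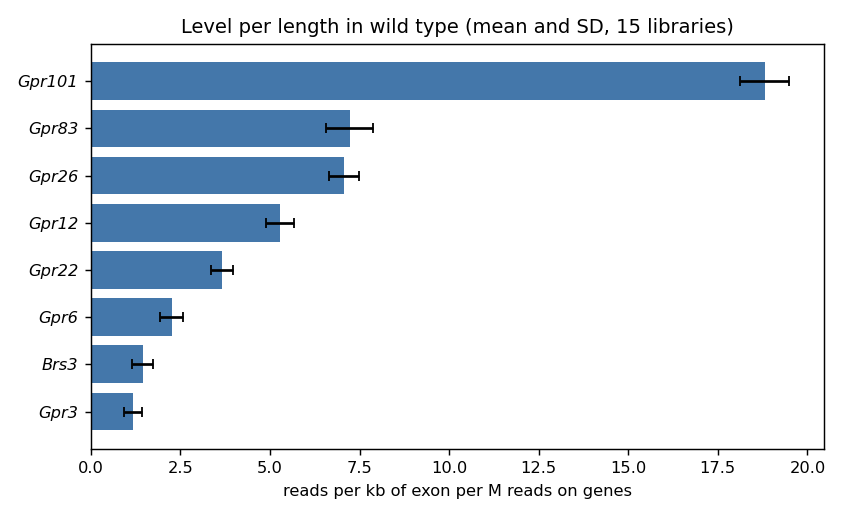
Level of each receptor gene in wild-type hypothalamus, in RPKM, as mean (bar) and SD (line) over 15 libraries. Gpr101, at 18.8, stands 2.60 times as high as Gpr83, the next.

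No change in the other 7 members was detected between genotypes. Of the 8, only Gpr101 was called on control diet, on high-fat diet or in their average, both with limma and with limma-voom on the recovered reads. None of the 7 reached an unadjusted p of 0.05 for genotype. Over all genes tested, 821 did so on control diet, 1026 on high-fat diet and 1140 in the average. The summed level of the 7 was 28.4 ± 1.16 RPKM in WT_CD and 28.2 ± 1.42 RPKM in KO_CD. It was 27.9 ± 0.936 RPKM in WT_HFD and 28.3 ± 0.647 RPKM in KO_HFD. The groups overlapped for each of the 7 members on both diets, while groups without overlap occurred in 0.0251% of all genes on control diet and 0.0201% on high-fat diet.

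Averaged over diets, 5 of the 7 log2 differences, knockout minus wild type, were above 0 and 2 were below, with a median of 0.03 against -0.002 over all genes. Their median size, without regard to sign, was 0.05 against 0.03 over all genes. The highest upper bound of a 95% interval was 0.28, for Gpr3, which is a level 1.22 times that of wild type. On single diets the bounds were wider, up to 0.30 on control diet and 0.47 on high-fat diet, both for Gpr3. The intervals therefore leave room for changes of these sizes in the members with few reads. For all members they describe the whole hypothalamus, and a change confined to a part of its cells was not tested.

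**Figure D2:**
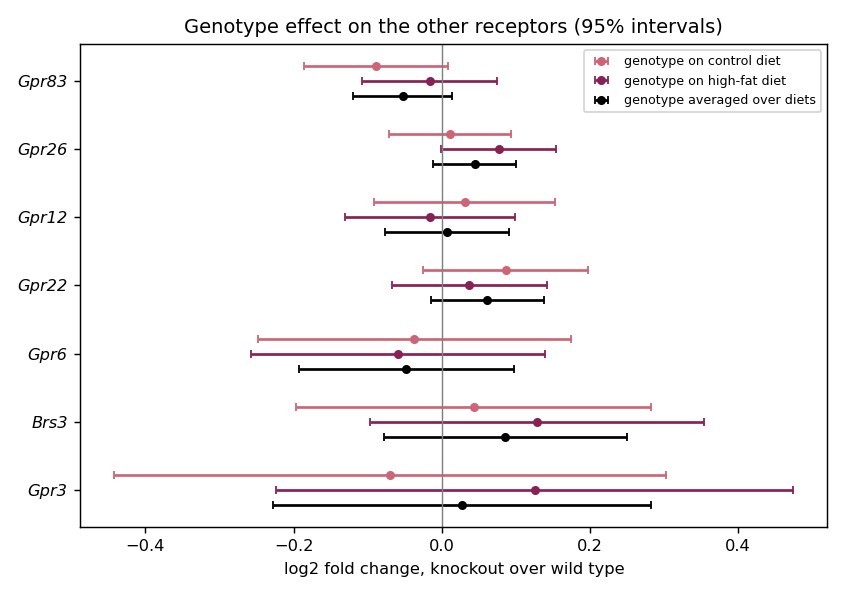
Log2 fold change (knockout over wild type) of the 7 other receptor genes on control diet, on high-fat diet and averaged over diets, as point and 95% interval. Every interval includes 0, and the widest belong to Gpr3, Brs3 and Gpr6, the genes with the fewest reads.

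Within the family of Gpr3, Gpr6 and Gpr12, Gpr12 (chromosome 5) had the highest level per length. Its normalized count was 337 to 397 in WT_CD (median 362) and 312 to 456 in KO_CD (median 370). On high-fat diet it was 333 to 437 in WT_HFD (median 376) and 347 to 405 in KO_HFD (median 363). The 4 groups overlapped, with the widest range in KO_CD, and the averaged genotype difference was 0.01 on the log2 scale (SE 0.04, 95% interval -0.08 to 0.09).

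Gpr6 (chromosome 10), best known from striatal neurons, was low. Its count was 88.9 to 137 in WT_CD (median 114) and 92.5 to 139 in KO_CD (median 105). In WT_HFD it was 80.9 to 134 (median 110), and in KO_HFD 86.0 to 125 (median 112). The groups overlapped, with an averaged genotype difference of -0.05 (SE 0.07, interval -0.19 to 0.10).

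Gpr3 (chromosome 4) had the lowest level per length of the members. Its count was 48.4 to 130 in WT_CD (median 92.0) and 54.3 to 125 in KO_CD (median 96.7). On high-fat diet it was 68.0 to 107 in WT_HFD (median 87.0) and 67.7 to 138 in KO_HFD (median 103). The coefficient of variation was 15.1% to 31.9% by group, against about 10.4% from counting in WT_HFD and 10.6% in KO_CD. The averaged genotype difference was 0.03 (SE 0.13, interval -0.23 to 0.28). Mice of 149 days had lower values than those of 150 days within KO_CD, at 74.5 ± 25.2 (SD, n = 5) and 112 ± 14.9 (SD, n = 3), and the part of age in this spread was not tested. Within mice of 149 days on control diet the genotype difference was -0.21 (SE 0.19), and within mice of 150 days on high-fat diet it was 0.12 (SE 0.16). Gpr3 also shares 204 exon bases with Cd164l2 on the opposite strand, at 62.2 normalized counts in wild type. The strand setting of the counting is not given in the sources used here, so reads of the pair may not be separate.

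Gpr26 (chromosome 7) had the most reads of the other members. Its count was 2196 to 2514 in WT_CD (median 2289) and 2088 to 2485 in KO_CD (median 2384). On high-fat diet it was 1965 to 2435 in WT_HFD (median 2266) and 2197 to 2681 in KO_HFD (median 2316). On high-fat diet the knockout mean was above the wild-type mean, at 2368 ± 138 (SD, n = 9) and 2246 ± 144 (SD, n = 8). This was the genotype difference nearest to the threshold on that diet, 0.08 on the log2 scale (SE 0.04, unadjusted p = 0.0512, adjusted p = 0.948, limma). The gene lies within the span of Fgfr2 on the opposite strand and shares 0 exon bases with it.

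Gpr83 (chromosome 9), a receptor of hypothalamic and other neurons with a part in energy balance in mice, was at 946 to 1175 normalized counts in WT_CD (median 1029) and 928 to 1041 in KO_CD (median 1011). On high-fat diet it was 818 to 1084 in WT_HFD (median 1008) and 891 to 1089 in KO_HFD (median 972). The groups overlapped. The genotype difference was -0.09 on control diet (SE 0.05, interval -0.19 to 0.01) and -0.02 on high-fat diet (SE 0.05, interval -0.11 to 0.07).

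Markers of the thalamus and habenula, regions above the hypothalamus, are given beside Gpr83. Of these 14 markers, all tested, 0 were called between genotypes, and 1 on control diet and 0 on high-fat diet had an unadjusted p under 0.05 (limma). On control diet 12 of them lay above 0, with a median log2 difference of 0.10, and on high-fat diet 8 did, with a median of 0.03. Over all genes tested, 49.8% lay above 0 on control diet and 48.5% on high-fat diet. The share with an unadjusted p under 0.05 (limma) was 4.12% and 5.15%. Of the 16 hypothalamic markers, 3 lay above 0 on each diet, with medians of -0.07 and -0.08, and 0 were called. The summed normalized count of the thalamus and habenula markers was 12364 to 15685 in WT_CD and 13461 to 16177 in KO_CD. On high-fat diet it was 11961 to 16426 in WT_HFD and 12751 to 15255 in KO_HFD. None of the 14 was at 0 in every library. Their relation with Gpr83 between libraries is given below, and their part in the genotype differences of Gpr83 was not tested.

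Brs3 (chromosome X) was low. Its count was 85.3 to 149 in WT_CD (median 97.9) and 101.4 to 131 in KO_CD (median 111). In WT_HFD it was 78.7 to 147 (median 114), and in KO_HFD 92.6 to 145 (median 128). The groups overlapped, with an averaged genotype difference of 0.09 (SE 0.08, interval -0.08 to 0.25). Brs3 lies 447909 bases from Gpr101 on the same chromosome. The annotation lists 8 genes between them, of which Htatsf1, Arhgef6 and Rbmx were tested and none was called. Their averaged genotype differences were -0.001 for Htatsf1, 0.09 for Arhgef6 and 0.05 for Rbmx on the log2 scale, with adjusted p of 0.998, 0.758 and 0.848 (limma).

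Gpr22 (chromosome 12) was at 423 to 504 normalized counts in WT_CD (median 453) and 442 to 541 in KO_CD (median 500). The range was 428 to 564 in WT_HFD (median 465.6) and 437 to 536 in KO_HFD (median 478). The groups overlapped, with an averaged genotype difference of 0.06 (SE 0.04, interval -0.01 to 0.14). It lies within the span of Cog5 on the opposite strand and shares 0 exon bases with it.

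**Figure D3:**
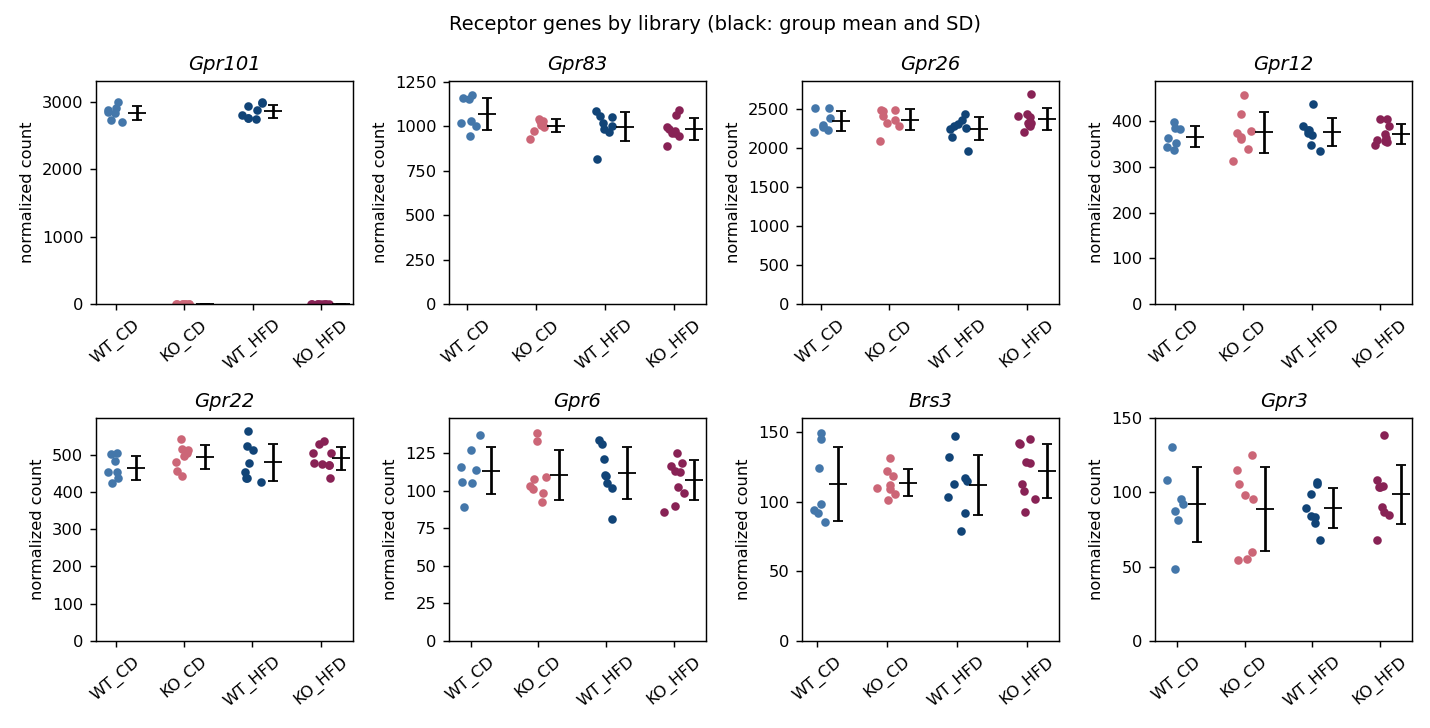
Normalized count of each receptor gene in every library, by group, with the group mean and SD in black and each axis starting at 0. Gpr101 is at or near 0 in the knockouts (KO_CD, KO_HFD) and between 2692 and 2998 in wild type, and for the other 7 genes the groups overlap.

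None of the 7 other members was called for diet in any comparison. Over all genes, limma called 0.0251% for diet in wild type, 0.0351% for diet in knockouts and 0.336% for diet averaged over genotypes. The counts behind these are 5, 7 and 67 genes, and groups without overlap occurred in 0.0652% of genes in wild type and 0.0552% in knockouts. By unadjusted p the lowest was that of Gpr83 in wild type, where the high-fat minus control difference was -0.10 on the log2 scale (SE 0.05, unadjusted p = 0.0444, adjusted p = 0.661). Averaged over genotypes, Gpr83 was at -0.06 (SE 0.03, adjusted p = 0.479), the lowest adjusted p of the 7 for diet. A difference of the genotype effect between diets was not detected for any of the 7 other members. The interaction called 0.0% of all genes with limma and with limma-voom, while 676 genes had an unadjusted p under 0.05 and none of the 7 members did. The interval of the interaction reached 0.71 for Gpr3, the widest. Gpr101 is not given for the interaction or for diet in knockouts, since its knockout libraries held 1 read in all.

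Genes that act with these receptors were counted from lists. Of 38 receptors that couple to Gs with a known ligand, 32 were tested and 0 were called for genotype averaged over diets, with a median log2 difference of -0.01. The lowest p was that of Vipr2, a receptor for the peptides VIP and PACAP (-0.21, SE 0.09, adjusted p = 0.848, limma). Of 53 further orphan class A receptors, 41 were tested and 0 called, with a median of -0.002. Gpr146 had the lowest p there (-0.12, SE 0.04, adjusted p = 0.758, limma).

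All 39 genes of the Gs and cyclic AMP machinery were tested and 0 called, with a median of 0.01. Pkia, an inhibitor of protein kinase A, had the lowest p (0.05, SE 0.02, adjusted p = 0.801, limma). All 19 genes of receptor desensitisation and trafficking were tested and 0 called, with a median of -0.004. Ramp1, which escorts the calcitonin-like receptor, had the lowest p (-0.07, SE 0.03, adjusted p = 0.816, limma). Of 20 genes that respond to cyclic AMP, all tested, 0 were called, with a median of -0.09. Of the 20, 8 had an unadjusted p under 0.05 (limma), against 5.72% of all genes. On control diet the median was -0.14 and 9 of the 20 had an unadjusted p under 0.05, against 4.12% of all genes. On high-fat diet the median was -0.07 and 0 did, against 5.15% of all genes. The difference between diets was not called for any of the 20. The 16 hypothalamic markers had an averaged median of -0.07, with 3 above 0, and their part in these values was not tested. The mean log2 value of the 20 in KO_CD was at most 9.91 at 149 days and at least 10.05 at 150 days. In WT_CD, with 6 mice of 149 days, the 1 mouse of 150 days lay within the range of the others. The part of age was not tested for this list. How far the 20 genes vary together was not tested either, so these counts may not be of separate hits. Dusp1, a phosphatase of MAP kinases and an immediate early gene, had the lowest p (-0.47, SE 0.15, adjusted p = 0.758, limma).

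Gpr151, an orphan receptor of habenular neurons, was the receptor of these lists that was called for diet. It was higher on high-fat diet averaged over genotypes by 0.67 on the log2 scale (SE 0.12, adjusted p = 0.00139, limma). With age as a covariate its value was 0.62 with an adjusted p of 0.124, so that the call ended where age, which followed diet, entered the fit. Of the 14 thalamus and habenula markers, 0 were called for diet averaged over genotypes, with a median of -0.006. Among the 16 hypothalamic markers, Avp was higher (0.34) and Hcrt lower (-0.36) on high-fat diet, and 4 of the 6 blood markers, all of them globin genes, were higher. With age as a covariate the values were 0.37 for Avp and -0.40 for Hcrt, and the calls ended, with adjusted p of 0.242 and 0.206. They also ended with no filter on low counts (0.104 and 0.0733), that of Avp with limma-voom (0.0568) and that of Hcrt with the replicate block (0.107).

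Library-to-library variation within groups was described for each member. The values were deviations of log2(normalized count + 1) from the group mean, and these correlations carry no p. In the 15 wild-type libraries, of 14130 genes compared, those most like Gpr101 were Arhgap6 (Pearson r = 0.90), Magel2 (0.88), Ttc21a (0.87), Tmem181b-ps (0.87) and Gpld1 (0.85). Magel2 is an imprinted gene of hypothalamic neurons within the region lost in human Prader-Willi syndrome. Over all 32 libraries, Gpr26 was most like Map1b, a microtubule protein of neurons (0.87), and Tnr, an extracellular matrix protein (0.85). Gpr3 was most like Dusp4 (0.81) and Spry4 (0.75), both feedback inhibitors of MAP kinase signalling. Gpr22 was most like Tbc1d30 (0.79) and Ndst4 (0.76), and Gpr83 most like C2cd4c (0.75) and Ecel1 (0.74). Gpr12 was most like Itgav (0.75) and Cd47 (0.61), Gpr6 like Srd5a3 (0.71) and Klhdc1 (0.70), and Brs3 like Cd44 (0.74) and Tmem47 (0.72). These genes were read from the same libraries and scaled by the same size factors as the members. They were picked as the highest of 14130 correlations for each member. At the other end, the lowest r ran from -0.62 for Gpr6 to -0.85 for Gpr101.

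Of 100 relations computed between the members, and between members and marker lists or genes that respond to cyclic AMP, 2 passed an adjusted permutation p of 0.05. These relations were chosen after the files were seen, and the 8 with cyclic AMP response genes were added after the results of the other 92. The permutations moved deviations over all libraries used and made no allowance for the group means subtracted, so the permutation p are somewhat too small. Gpr83 was lower in libraries with a higher mean of the thalamus and habenula markers (r = -0.64, permutation p = 0.00012, adjusted p = 0.012; rho = -0.69, permutation p = 0.00002, adjusted p = 0.002; 32 libraries). Without the 2 libraries farthest from the median of Gpr83, r was -0.62. It was -0.74 in WT_CD, -0.74 in WT_HFD, -0.76 in KO_CD and -0.14 in KO_HFD, and -0.78 and -0.52 in mice of 149 and 150 days. With the same markers Gpr101 had r = -0.60 in the 15 wild-type libraries, which missed the threshold (adjusted permutation p = 0.119). The r of Gpr6 and of Brs3 was -0.33, and that of Gpr26 -0.07. Gpr3, Gpr22 and Gpr12 were above 0, at 0.32, 0.25 and 0.05.

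Gpr3 was higher in libraries with a higher mean of the genes that respond to cyclic AMP (r = 0.57, permutation p = 0.00071, adjusted p = 0.0355; rho = 0.57, permutation p = 0.00064, adjusted p = 0.032; 32 libraries). With an allowance for the group means, which was not computed, these adjusted p may not stay under 0.05. Without the 2 libraries farthest from the median of Gpr3, r was 0.51. It was 0.68 in WT_CD, 0.58 in WT_HFD, 0.80 in KO_CD and -0.21 in KO_HFD, and 0.56 and 0.44 in mice of 149 and 150 days. Within KO_CD the mean count of Gpr3 was 74.5 at 149 days and 112 at 150 days. The response genes were also higher at 150 days in that group. The deviations behind the r by age, here and for Gpr83, were from group means over both ages. A shift with age within a group therefore stays in them, and neither relation was tested apart from age. Whether KO_HFD differs from the other groups in either relation was not tested. Of the relations that missed the threshold, the nearest were Gpr6 with Brs3 (r = 0.51) and Gpr3 with the striatum markers (r = -0.51). Both had an adjusted permutation p of 0.0812 over 32 libraries. Next, at 0.0941, were Gpr101 with Brs3 (r = 0.68) and with Gpr6 (r = 0.67) in 15 libraries, and Gpr22 with Gpr26 (r = 0.47) in 32.

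**Figure D4:**
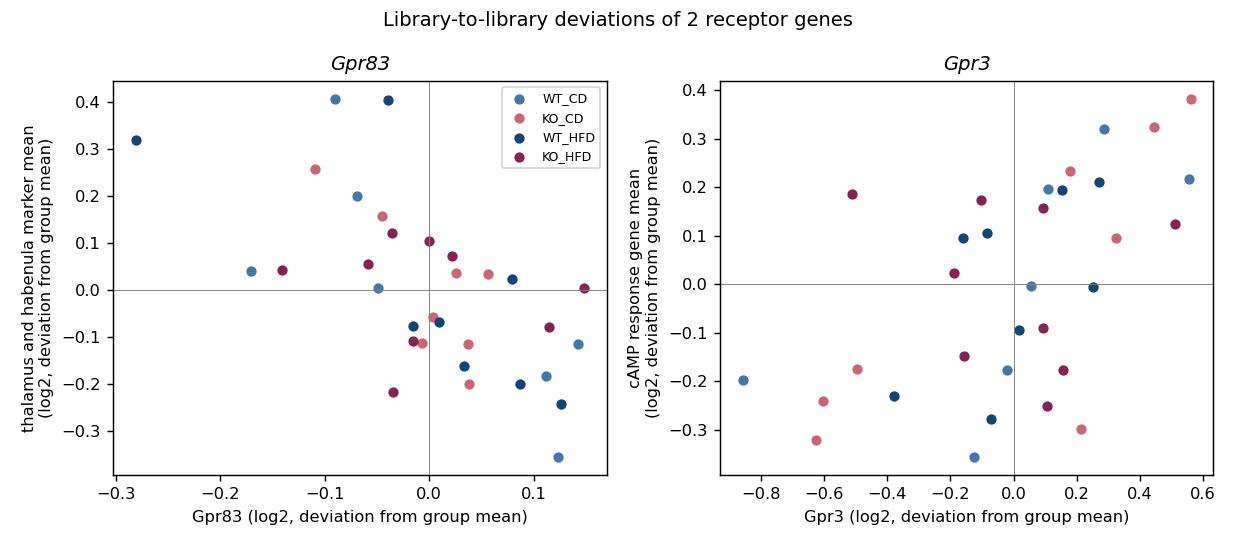
Deviation of each library from its group mean on the log2 scale, for Gpr83 (x) against the mean of 14 thalamus and habenula markers (y), and for Gpr3 (x) against the mean of 20 genes that respond to cyclic AMP (y), with 1 point per library coloured by group. The first relation runs downward (r = -0.64) and the second upward (r = 0.57), and within KO_HFD r is -0.14 and -0.21.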

How the data were processed

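Per the submitters' processing notes the tools were STAR 2.7.6a, Trim Galore 0.6.2, DESeq2 1.28.1, cutadapt 2.10, R 4.0.2 and FastQC, with build GRCm38. Which tool counted the reads, and with which strand setting, was not given in the sources used here.

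Each deposited log2 value equalled the log2 of whole reads over a size factor, with a count of 0 listed as the log2 of 0.1. Whole reads were recovered for 100% of values within 1e-06 reads. Since log values were deposited, limma 3.58.1 (R 4.3.3, statmod 1.5.0) on log2(normalized count + 1) was chosen as the main test. It used an intensity trend and robust variances, with all 4 groups in 1 fit and no covariates. The recovered reads would also have allowed a count model, which was not fitted, and they entered limma-voom as an alternative. Genes needed a normalized count of 10 in at least 7 libraries. Tests were two-sided, with Benjamini-Hochberg adjustment over 19928 genes and a threshold of 0.05. The test was checked on simulated data. Each library is a separately labelled mouse, and the labels give no other batch than age. The sample descriptions also carry a running number over the 32 libraries that alternates between the groups. Its meaning is not given in the sources used here, and it was not itself used in a fit. The replicate numbers follow its order within each group, so the replicate block grouped libraries with nearby running numbers.

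Symbols, coordinates and exon lengths came from GENCODE release M21 (GRCm38), which named 55141 of 55401 identifiers. Counting intervals are at 95% and, with the floor of 3 reads, cover counting error only. Correlations used 100000 permutations of the deviations over the libraries, with no allowance for the group means subtracted. Members and lists were chosen with earlier results of these data known. Named genes were all members, list genes called in any comparison, the gene of lowest p of each pathway list for genotype, and the genes most correlated with each member (mean of at least 1 CPM). Alternatives were another pseudocount, no filter, limma-voom, scaling to total reads, age as a covariate, a replicate block and leaving out each library, and, added after the data were seen, mice of 1 age and wild-type libraries alone.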

Additional observations from a re-analysis of the deposited data

Results flagged for a closer look

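For 8 members, each group of 4 to 10 libraries with varying values was searched for a library far from the others, and 3 of 31 groups held one. Chance gives about 1 in 20 groups where values are continuous. That rate does not apply to Gpr101 in KO_HFD, since 1 read among libraries at 0 always meets the rule. In KO_HFD, replicate 4 had the highest count of Gpr26, at 2681.34 against 2430 in the next library. The same library held the only Gpr101 read of the knockouts, a normalized count of 1.01221 where the others were at 0. In WT_HFD, replicate 5 had the lowest count of Gpr83, at 817.66 against 967 in the next library. In that library the mean log2 value of the thalamus and habenula markers was 8.19, in a group that ran from 7.63 to 8.27. This was 0.32 above the group mean. Without this library the r of Gpr83 with these markers was -0.59 (31 libraries), the value nearest to 0 on leaving out any 1 library.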

How the results depend on the processing

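The number of members called in each comparison was the same under all 269 alternatives, which include leaving out each of the 32 libraries. For genotype the member called was Gpr101, the targeted gene, a call that no alternative could remove. Leaving out a library of a group outside a comparison does not change its fitted difference. For the other 7 members the smallest adjusted p under any alternative was 0.386 (limma or limma-voom). For single members, 18 of 342 alternatives changed the sign, none of a called value, with a smallest adjusted p of 0.679 among them (limma). With age as a covariate, Gpr3 was at -0.028 for genotype averaged over diets, and for diet in wild type Gpr101 was at -0.0049, Gpr22 at -0.055, Gpr6 at 0.018 and Gpr3 at -0.33. For diet in knockouts Gpr26 was at -0.014 and Gpr3 at -0.037, and for diet averaged over genotypes Gpr12 at -0.016, Gpr22 at -0.066, Gpr6 at 0.0014 and Gpr3 at -0.18. In mice of 1 age, Gpr26 was at -0.030 for genotype on control diet and Gpr83 at 0.0018 for genotype on high-fat diet. With the replicate block, Brs3 was at -0.013 and Gpr3 at -0.018 for diet in wild type, and Gpr26 at -0.00081 and Gpr12 at 0.0022 for diet in knockouts. Scaling to total reads put Gpr12 at 0.0035 for diet in knockouts. The cause was not tested.

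Genes called over the whole table moved more. For diet averaged over genotypes 67 became 12 with age as a covariate, 43 with no filter and 45 with the replicate block. For diet in wild type 5 became 1 with age, 2 in wild-type libraries alone and 3 with the block. For diet in knockouts 7 became 4 with scaling to total reads, and for genotype on control diet 1 became 2 with no filter. Replicate numbers share no stated origin: 45 same-numbered pairs had a median correlation of -0.004, 15 of them over 0.1, and 8 of 32 libraries correlated best with their own number. The averaged fold change of Gpr101 was -9.14 with a pseudocount of 5 and -12.38 with limma-voom. Depth limits Gpr3, Brs3 and Gpr6 most, for which counting alone gives a coefficient of variation of 9.11% to 10.6% by group.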
